A study of Mus musculus with 6 samples.

Results

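Gluconeogenesis and hexose handling is represented here by 9 genes: the enzymes Pck1, Fbp1, Fbp2 and G6pc, the sugar carriers Slc5a1, Slc2a2 and Slc2a5, the fructose kinase Khk and the glycerol phosphate dehydrogenase Gpd1. They were found by exact gene symbol in the annotation of the array, which gave 10 probe sets for all 9 genes, out of 12422 probe sets and 8251 genes with a symbol of their own. They were chosen by their intensities in the null against control contrast together with their known roles, so their values in that contrast are given as a description, with no test of the members and no support drawn from them. Of the 10 probe sets, 9, for 8 genes, passed a filter on dim values, which asked for an intensity above 109.7 in at least 3 of the 6 arrays. The probe set of Khk did not pass.

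The samples were the entire small intestines of 3 Cftr null mice, Cftr(-/-), and 3 Cftr control mice, Cftr(+/+), each read on its own array. All 6 were 40 days old and congenic on the black6 background, and all had been kept on the liquid diet Peptamen since day 10 of life to prevent obstruction of the gut, so the controls carry this diet as well. Each group held 2 males and 1 female, the females being null replicate 2 and control replicate 3. The labels do not name the null allele, the litters or any batch, and RNA of the whole organ mixes every cell type along its length. Intensities are in arbitrary units on arrays scaled to a common level (2%-trimmed mean 500.3 on each of the 6), and with 3 mice in a group the precision is limited by their number. The brightest Cftr probe set read 325.9, 295.6 and 368.5 in null replicates 1 to 3, against 801.6, 1017.5 and 1002.0 in control replicates 1 to 3. The 2 labelled groups thus did not overlap in this probe set of the targeted gene. The dimmer Cftr probe sets did not pass the filter on dim values, and in them the groups overlapped.

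Gluconeogenesis builds glucose from lactate, amino acids and glycerol. It shares most steps with glycolysis and bypasses the irreversible ones with enzymes of its own: phosphoenolpyruvate carboxykinase (Pck1), fructose-1,6-bisphosphatase (Fbp1 and Fbp2) and glucose-6-phosphatase (G6pc), which works in the endoplasmic reticulum with the glucose-6-phosphate carrier Slc37a4. Liver and kidney are its main sites, and the enterocytes of the small intestine express the same enzymes. Enterocytes also take up dietary glucose and galactose through the sodium-coupled carrier SGLT1 (Slc5a1) and fructose through GLUT5 (Slc2a5) at the brush border, and pass hexoses to the blood through GLUT2 (Slc2a2).

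The promoters of the gluconeogenic enzymes are shown because 3 of these 4 genes were lower in null mice without overlap, against 10.8% of all tested probe sets. The genes were chosen with this contrast in view, so nothing is read from that count. Each window runs from 250 bases before to 50 bases after an annotated transcript start. Windows were taken from RefSeq (build GRCm38.p6), where 8 of the 9 genes were matched. For Fbp1 and Khk the start used lies inside the annotated gene and not at its 5′ end, so motif positions depend on that choice. Sequences run 5′ to 3′ in the direction of transcription, and capitals mark letters that match any of 7 motifs searched on both strands. The Pck1 window lies at chr2:173152823-173153122 (plus strand), the Fbp1 window at chr13:62888233-62888532 (minus strand), the Fbp2 window at chr13:62858351-62858650 (minus strand) and the G6pc window at chr11:101367466-101367765 (plus strand).
Pck1: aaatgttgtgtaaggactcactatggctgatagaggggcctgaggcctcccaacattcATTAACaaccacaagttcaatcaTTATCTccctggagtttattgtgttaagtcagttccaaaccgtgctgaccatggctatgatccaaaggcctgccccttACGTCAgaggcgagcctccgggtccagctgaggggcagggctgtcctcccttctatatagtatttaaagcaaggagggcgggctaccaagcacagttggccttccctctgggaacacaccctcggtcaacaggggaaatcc
Fbp1: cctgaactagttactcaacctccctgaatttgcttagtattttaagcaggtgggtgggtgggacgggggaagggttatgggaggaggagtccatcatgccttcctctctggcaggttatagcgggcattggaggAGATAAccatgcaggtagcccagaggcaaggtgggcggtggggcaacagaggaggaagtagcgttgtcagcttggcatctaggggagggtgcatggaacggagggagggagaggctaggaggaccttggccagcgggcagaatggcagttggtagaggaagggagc
Fbp2: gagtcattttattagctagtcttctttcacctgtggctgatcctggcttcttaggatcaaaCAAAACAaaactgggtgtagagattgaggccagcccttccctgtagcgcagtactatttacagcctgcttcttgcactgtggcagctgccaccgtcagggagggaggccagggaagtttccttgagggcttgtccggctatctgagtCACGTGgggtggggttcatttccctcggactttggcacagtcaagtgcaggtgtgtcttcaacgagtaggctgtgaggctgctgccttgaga
G6pc: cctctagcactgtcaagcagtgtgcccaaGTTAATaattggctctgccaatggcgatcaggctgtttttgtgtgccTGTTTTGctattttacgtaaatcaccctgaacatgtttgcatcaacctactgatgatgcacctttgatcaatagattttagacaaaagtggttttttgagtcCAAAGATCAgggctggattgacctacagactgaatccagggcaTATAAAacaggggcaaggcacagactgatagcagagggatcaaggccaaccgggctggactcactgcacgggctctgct

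The motifs were TATAAA (the TATA box), TGACGT (core of the cyclic AMP response element), GTTAAT (HNF1 site), CAAAGNNCA (part of the direct repeat bound by HNF4A and PPARA), TGTTTTG (insulin response sequence bound by FOXO factors), CACGTG (E box) and AGATAA (bound by GATA factors). No matches of different motifs overlapped each other in these windows. Pck1 held TGACGT on the opposite strand at positions -91 to -86 from the start, a motif found in 7.51% of all 32851 promoter windows of that length. It also held GTTAAT and AGATAA. G6pc held 4 motifs: TATAAA at -29 to -24 (13.6% of all windows), CAAAGNNCA at -72 to -64 (6.36%), TGTTTTG at -174 to -168 (6.28%) and GTTAAT at -221 to -216 (7.1%). Fbp1 held AGATAA alone, at -116 to -111 (11.2% of all windows). Fbp2 held CACGTG at -42 to -37 (7.15%) and TGTTTTG on the opposite strand. Thus Pck1, Fbp1 and Fbp2 shared no motif that all 3 held. The windows of Slc2a2 and Slc2a5 held 0 of the 7 motifs, those of Slc5a1 and Khk held both CACGTG and CAAAGNNCA, and Khk also held GTTAAT. Fbp1 and Fbp2 are neighbours on chromosome 13, with 0 annotated genes between them. A match describes letters in the window and not a bound site.

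**Figure D1:**
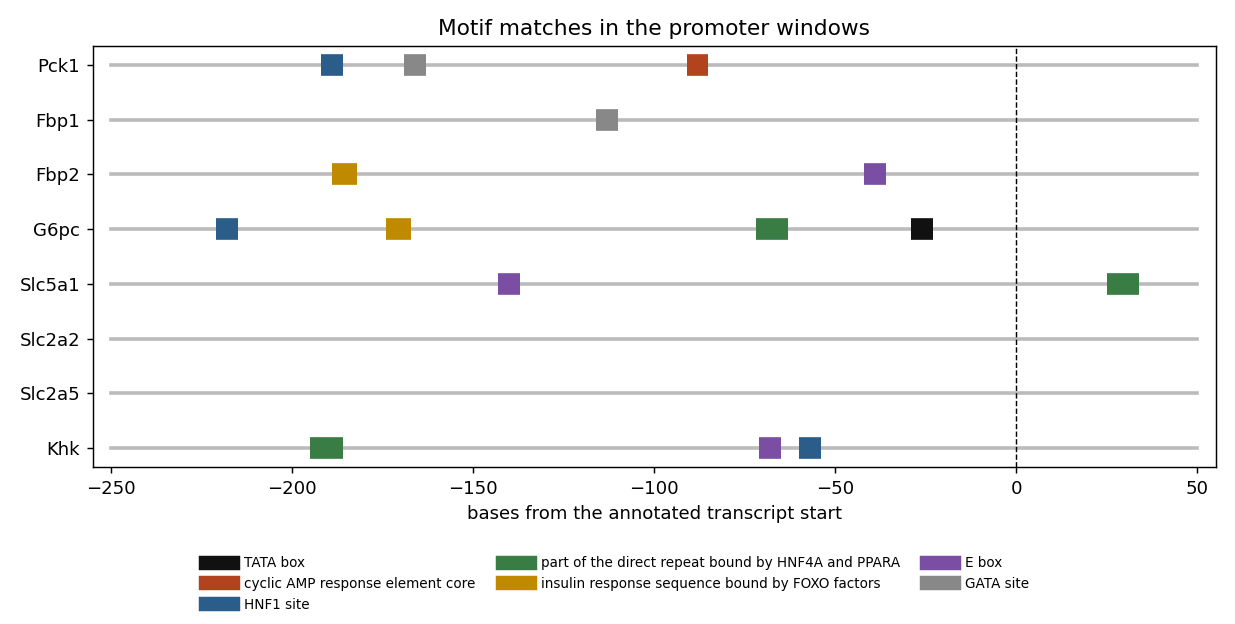
Positions of the 7 motifs in the 300-base promoter windows of 8 members. The horizontal axis gives bases from the annotated transcript start used, grey lines are the windows and coloured bars are matches on either strand. Bars of Pck1, Fbp1 and Fbp2 have no colour common to all 3, and Slc2a2 and Slc2a5 have 0 bars.

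Among the gluconeogenic enzymes, Pck1 was at least 7.21-fold and Fbp1 8.50-fold lower in null than in control intestine, and Fbp2 and G6pc were lower by a smaller factor. Pck1, which makes phosphoenolpyruvate from oxaloacetate and is the usual rate-setting enzyme of the pathway, gave 77.8, 150.4 and 81.4 in null replicates 1 to 3, against 612.0, 1825.3 and 577.6 in control replicates 1 to 3. The groups did not overlap, and control replicate 2 stood well above the other controls. The null mean of 103.2 ± 40.9 was 10.3% of the control mean of 1005 ± 711 (SD, n = 3 each). The log2 change, null minus control, was -2.98 (SE 0.60) on the scale log2(intensity + 12). Because the null log2 mean lay at or below the filter level, the fold given is a bound.

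Fbp1, the isoform of fructose-1,6-bisphosphatase known from liver and kidney, gave 350.7, 450.7 and 151.2 in null mice, against 2083.6, 3654.5 and 2177.8 in control mice. Every null value lay below the lowest control by a wide gap, and null replicate 3 was the lowest of its group. The means were 317.5 ± 152.5 in nulls and 2639 ± 881 in controls (SD, n = 3 each), a log2 change of -3.09 (SE 0.52). By size of fitted change, Fbp1 and Pck1 ranked 8 and 10 among the lower of 7601 probe sets tested.

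Fbp2, the isoform known from skeletal muscle, gave 1916.3, 2410.2 and 1410.0 in null mice, against 4429.1, 3834.1 and 4543.2 in control mice. These groups did not overlap either, and the 3 controls lay closer together than the 3 nulls. The means were 1912 ± 500 in nulls and 4269 ± 381 in controls (SD, n = 3 each), and the log2 change was -1.18 (SE 0.24). The summed level of 9 skeletal muscle markers overlapped, at 2182 to 2756 in nulls and 2031 to 2706 in controls. Most of that sum came from Pvalb, whose probe set name marks possible cross-hybridization. Of the 9 markers, Ckm was higher in nulls without overlap, at 194.2, 247.4 and 227.1 in nulls, against 153.9, 151.9 and 170.3 in controls, and Myh1, Tnnt3 and Tnni2 lay below the filter level in every mouse.

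G6pc, the phosphatase that releases free glucose, gave 1152.8, 685.1 and 419.1 in null mice, against 1337.3, 2278.5 and 905.0 in control mice. Here the groups overlapped, since null replicate 1 was brighter than control replicate 3. The means were 752.3 ± 371.4 in nulls and 1507 ± 702 in controls (SD, n = 3 each), with a log2 change of -1.01 (SE 0.56).

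**Figure D2:**
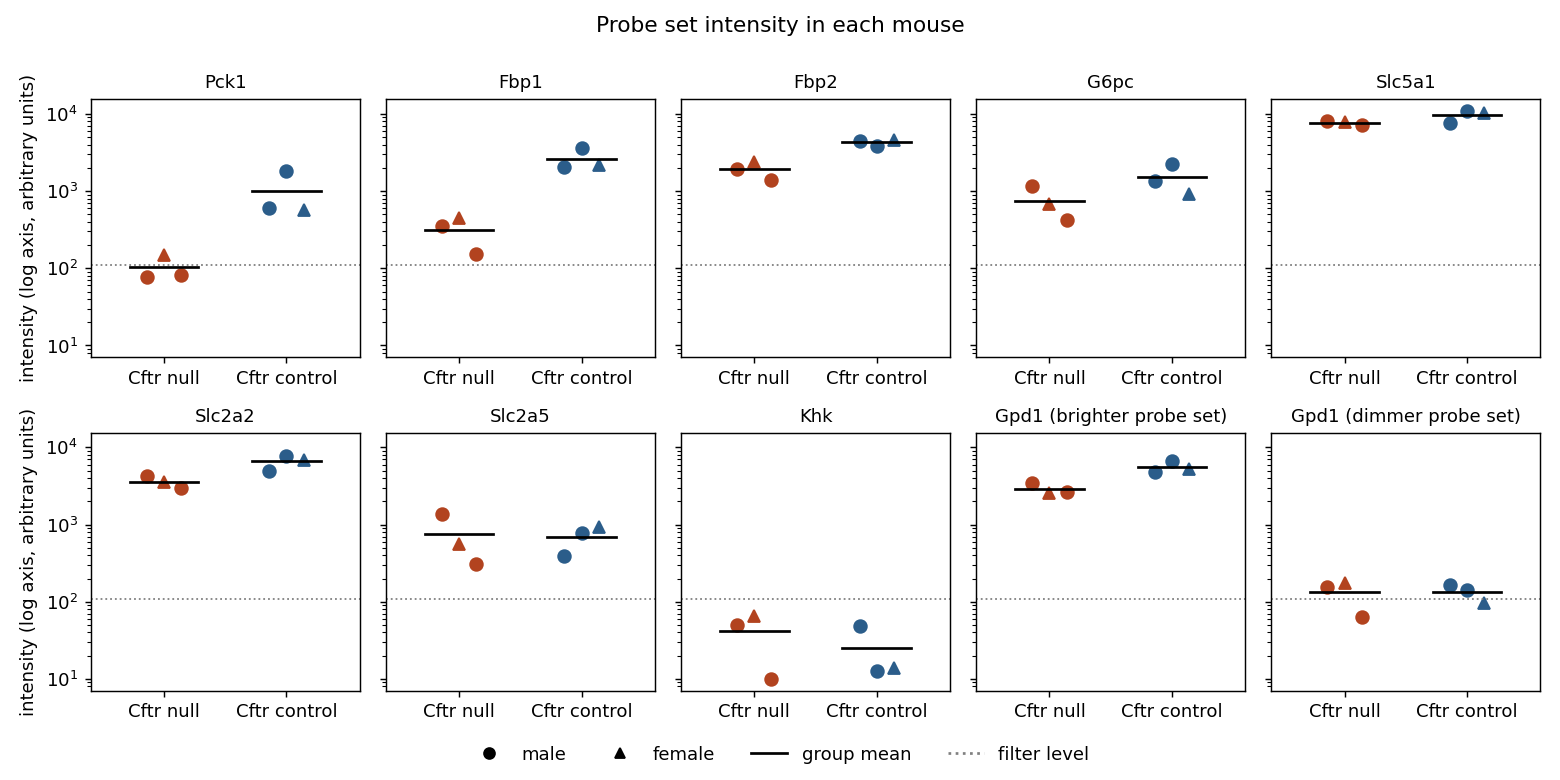
Intensity of each member probe set in each mouse, on a log axis in arbitrary units, with Cftr null on the left and Cftr control on the right of each panel. Circles are males, triangles females, black lines group means (n = 3) and the dotted line the filter level of 109.7. Pck1, Fbp1, Fbp2, Slc2a2 and the brighter Gpd1 probe set show no overlap between the groups.

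The sugar carriers differed among themselves. Slc2a2 gave 4218.2, 3571.2 and 2933.6 in null mice, against 4953.8, 7782.7 and 6962.3 in control mice. The groups did not overlap, though null replicate 1 came close to control replicate 1. Its means were 3574 ± 642 in nulls and 6566 ± 1455 in controls (SD, n = 3 each), and its log2 change was -0.87 (SE 0.25).

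Slc5a1, the sodium-coupled glucose carrier, gave 8173.6, 7753.2 and 7148.9 in null mice, against 7527.3, 10930.7 and 10420.2 in control mice. Its groups overlapped because control replicate 1 lay inside the null range, and the null mean was 79.9% of the control mean. The log2 change was -0.31 (SE 0.18).

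Slc2a5, the fructose carrier, gave 1373.5, 565.4 and 307.3 in null mice, against 395.8, 769.4 and 916.9 in control mice. The null mice spanned a wider range than the controls and enclosed them on both sides. The means were 748.7 ± 556.2 in nulls and 694.0 ± 268.6 in controls (SD, n = 3 each), and the log2 change of -0.07 (SE 0.71) was smaller than its error. Leaving out null replicate 1 gave -0.63 and leaving out null replicate 3 gave 0.42, so single mice set its sign.

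Khk, ketohexokinase, which phosphorylates fructose after uptake, gave 50.0, 66.2 and 10.0 in null mice, against 48.8, 12.8 and 13.9 in control mice. All 6 values lay below the filter level, so no difference was detectable with this probe set. Gpd1, which links dihydroxyacetone phosphate to glycerol 3-phosphate for gluconeogenesis from glycerol and for lipid synthesis, had 2 probe sets. The brighter gave 3495.1, 2536.1 and 2641.2 in null mice, against 4864.8, 6653.3 and 5175.8 in control mice. These groups did not overlap, with means of 2891 ± 526 in nulls and 5565 ± 956 in controls (SD, n = 3 each) and a log2 change of -0.94 (SE 0.20). The dimmer Gpd1 probe set, whose name marks possible cross-hybridization, gave 155.4, 176.1 and 64.2 in null mice, against 165.6, 142.0 and 97.3 in control mice. It lay near the filter level and overlapped, so the 2 probe sets disagree (log2 change -0.11, SE 0.46).

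The order of the members within each group also varied by mouse. Null replicate 3 was the lowest of its group in 7 of the 9 tested member probe sets, where it was the lowest in 35.5% of all tested probe sets. Control replicate 2 was the highest of its group in 6 of 9, against 38.9% of all tested probe sets, and control replicate 1 the lowest in 5 of 9, against 30.1%. Null replicate 1 was the highest of the nulls in 5 of 9, against 29.4% of all tested probe sets, and null replicate 2 in the other 4, against 35.2%. Among tested probe sets the SD of log2 values within a group was widest for Slc2a5 in nulls (1.07) and Pck1 in controls (0.92), and narrowest for Slc5a1 in nulls (0.10).

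Across the 9 tested probe sets the median log2 change was -0.94, and all 9 were below 0, whereas over all 7601 tested probe sets the median was 0.03 and 45.7% were below 0. Groups without overlap and lower in null mice were found in 5 of the 9, against 10.8% of all tested probe sets, and 0 were without overlap and higher (23.8% of all tested probe sets did not overlap in either direction). The members were gathered with this contrast in view, so nothing is read from these counts.

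RNA of enterocytes moved in the same direction. Of 10 enterocyte markers, all 10 were lower in null mice, against 45.7% of all tested probe sets. Their median log2 change was -0.63. In 5 of them the groups did not overlap, where 10.8% of all tested probe sets were lower without overlap. The summed intensity of the 10 was 80067 to 116629 in nulls and 127139 to 151893 in controls. Among the markers, the lipid-binding protein Fabp2 averaged 7991 in nulls and 18085 in controls, the alkaline phosphatase Akp3 1513 in nulls and 5905 in controls, and the cytoskeletal protein villin, Vil1, 8486 in nulls and 10352 in controls. Vil1 overlapped, as did Apoa1 and Krt20, which changed least (log2 change -0.12 each). In RNA of whole organs, fewer cells of a type and less RNA per cell cannot be told apart. Smooth muscle markers summed to 22395 to 26808 in nulls and 14640 to 20544 in controls, 6 of 7 being higher in nulls. Markers of blood-derived cells summed to 13781 to 21496 in nulls and 9791 to 11505 in controls, 8 of 13 being higher. In that list the mast cell proteases averaged 4394 in nulls and 93.3 in controls for Mcpt1 and 3247 in nulls and 109 in controls for Mcpt2, whereas the macrophage lysozyme Lyz2 was lower without overlap, at 3687 in nulls and 6598 in controls, and Ptprc and Cd3e had lower means. The part of these markers in the values of the members was not tested.

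The mean log2 change of the 10 enterocyte markers was -0.68. Centring the arrays on these markers, a step chosen after the values were seen, therefore adds the same 0.68 to the log2 change of every probe set and leaves their order as it was. After it Fbp1 stood at -2.4, Pck1 at -2.3, Fbp2 at -0.50, G6pc at -0.33, the brighter Gpd1 probe set at -0.26 and Slc2a2 at -0.19. Slc5a1 (0.37), the dimmer Gpd1 probe set (0.57) and Slc2a5 (0.61) then lay above 0.

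**Figure D3:**
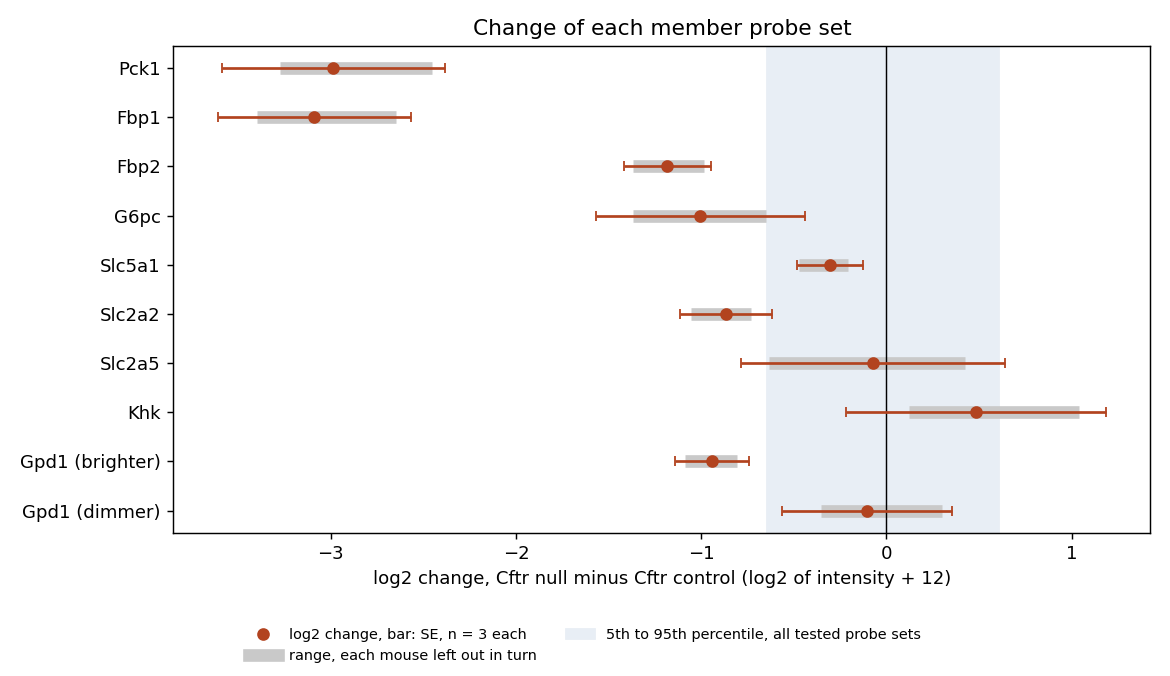
Log2 change of each member probe set, Cftr null minus Cftr control, with SE bars (n = 3 each) on the log2(intensity + 12) scale. Grey bars give the range when each mouse was left out in turn, and the shaded band the 5th to 95th percentile of all tested probe sets (-0.64 to 0.61). Pck1 (-2.98) and Fbp1 (-3.09) lie far left of the band.

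Pck1 and Gpd1 are also abundant in fat, and Pck1, Fbp1 and G6pc in liver. Adipocyte markers summed to 1472 to 1622 in nulls and 1333 to 1588 in controls over 6 genes, and the defining adipocyte gene Adipoq lay between 58.5 and 87.8 in nulls and between 40.6 and 78.1 in controls, below the filter level in every mouse. Another adipocyte marker, Cidec, was lower without overlap, at 161.8, 136.9 and 191.3 in nulls, against 227.6, 347.3 and 289.2 in controls, and most of the summed level came from Lep. Hepatocyte markers summed to 9622 to 10502 in nulls and 9204 to 10556 in controls over 8 genes, with most of that sum from Cps1, which the small intestine also makes. Albumin, Alb, was at most 103.0 in nulls and at most 84.6 in controls, and Apoh, Ahsg, Hpx and Fgb were also below the filter level throughout. Ttr lay near that level, between 122.7 and 143.2 in nulls and between 94.9 and 199.9 in controls. Tat, tyrosine aminotransferase, was at 375.9, 577.0 and 1502.4 in nulls, against 81.3, 28.0 and 137.8 in controls, opposite in direction to Pck1.

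Of 4 markers of the proximal small intestine, where sugar uptake is concentrated, 3 were lower in null mice, 2 of them without overlap (10.8% of all tested probe sets). The brush border lactase, Lct, gave 714.5, 4815.5 and 569.1 in nulls, against 11317.3, 10927.9 and 10865.6 in controls. The folate carrier Slc46a1 averaged 904 in nulls and 3377 in controls. Fabp1, which is also among the enterocyte markers, averaged 15048 in nulls and 19902 in controls and overlapped. The proximal transcription factor Gata4 was not lower, averaging 1042 in nulls and 919 in controls, and overlapped. Ileal markers summed to 3635 to 5786 in nulls and 6581 to 17263 in controls. Of these, Cubn was lower without overlap, at 108.8, 361.8 and 118.2 in nulls, against 3666.9, 3183.4 and 4704.5 in controls. Slc51a was also lower without overlap, averaging 2667 in nulls and 4656 in controls. Fgf15 (at most 153.8) and Slc10a2 (at most 70.8) were dim and overlapped. Control replicate 2 stood apart in the bile acid-binding protein Fabp6, at 880.2, 2158.5 and 1116.0 in nulls, against 7441.1, 100.3 and 6098.7 in controls. It was also the lowest mouse in Fgf15 (6.0) and Slc10a2 (3.9). That mouse was also the highest control for Pck1, Fbp1 and G6pc, and without it their log2 changes were -2.45, -2.83 and -0.66. The share of each region in the RNA was not tested.

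The choice of members did not use sex, so the members were tested on it with limma over all probe sets. Of the 9 member probe sets, 0 differed between females and males at an adjusted p under 0.05, where 0.0263% of all tested probe sets were called, and 0 did at an unadjusted p under 0.05, where 4.97% of all did. The log2 differences, female minus male with genotype as a term, ran from -0.48 for G6pc (SE 0.43) to 0.34 for Fbp2 (SE 0.18), with adjusted p from 0.921 to 0.996. For the interaction of genotype and sex, 0 of 9 were called, as were 0.0% of all tested probe sets, and 0 were at an unadjusted p under 0.05, against 3.1% of all. Pck1 had the largest such term: its log2 change was -1.86 in the female pair and -3.55 in males, a difference of 1.69 (SE 0.83, limma adjusted p = 0.9998). On simulated data the interaction fit recovered 0.0% of changes of log2 2 and 82.6% of changes of log2 4. It could therefore not call a term of the size seen in Pck1, and no conclusion is drawn from the 0 calls. With 1 female per group such terms are poorly measured, and a p that misses the threshold does not show that the sexes were alike.

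Other genes of sugar metabolism were read from 8 lists that hold none of the members, with 92 genes tested. Of these, 5 fell and 0 rose in null mice (limma, adjusted p under 0.05), where 1.87% of all tested probe sets fell and 1.13% rose. At an unadjusted p under 0.05, 13 were lower and 11 higher. The median log2 change over the 92 genes was 0.08, against 0.03 over all tested probe sets.

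Of 14 other gluconeogenesis genes, 1 fell: Slc37a4, the carrier that brings glucose-6-phosphate to G6pc. It gave 845.0, 820.1 and 626.7 in null mice, against 1144.2, 1683.3 and 1700.4 in control mice, with no overlap (log2 change -0.96, SE 0.19, limma adjusted p = 0.0437). The call was lost in 8 of 17 alternatives, among them leaving out any mouse except control replicate 1 (adjusted p 0.0349 to 0.17 over all 17). The list's median was 0.04, and 7 of 14 genes were below 0. The brightest genes of the list did not pass: mitochondrial malate dehydrogenase, Mdh2, averaged 13961 in nulls and 14511 in controls, and triose phosphate isomerase, Tpi1, 11127 in nulls and 10419 in controls. The mitochondrial isoform Pck2 and pyruvate carboxylase, Pcx, which precedes Pck1, did not pass, at log2 changes of 0.16 and -0.22. Pcx was read from the brighter of 2 tested probe sets, whose name marks possible cross-hybridization. Its values, from 124.2 to 184.3 over all mice, lay near the filter level.

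Of 20 genes of glycolysis and pyruvate oxidation, 1 fell and 0 rose, while 16 had a log2 change above 0 and the median was 0.24. The gene that fell was Pdk4, the kinase that shuts off pyruvate dehydrogenase. It gave 56.9, 155.9 and 142.4 in null mice, against 766.8, 1191.9 and 490.2 in control mice, at least 6.39-fold lower (limma adjusted p = 0.0169). The call was lost without null replicate 1 or control replicate 1 (adjusted p 0.0125 to 0.0665 over 17 alternatives). The brightest genes did not pass: lactate dehydrogenase, Ldha, averaged 18040 ± 1428 in nulls and 15071 ± 1411 in controls, and pyruvate kinase, Pkm, 8998 ± 807 in nulls and 8286 ± 426 in controls (SD, n = 3 each).

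Of 10 genes of fructose, galactose, mannose and polyol metabolism, Galm, the galactose mutarotase, fell and 0 rose, with a median of -0.14. Its brightest probe set averaged 1787 ± 72 in nulls and 2633 ± 197 in controls (SD, n = 3 each; log2 change -0.55, limma adjusted p = 0.0412). It is 1 of 5 tested Galm probe sets whose log2 changes ran from -0.93 to -0.16, 1 other of which also passed. The names of all 5 mark possible cross-hybridization. The call on the brightest was lost in 9 of 16 alternatives, leaving out any single mouse among them (adjusted p 0.0319 to 0.144). Ugdh, which makes UDP-glucuronate, did not pass, at 6332 ± 241 in nulls and 9663 ± 3385 in controls, where the controls spread widely. Of 5 glycerol genes, hormone-sensitive lipase, Lipe, which frees glycerol from stored fat, fell and 0 rose. It averaged 293 ± 16 in nulls and 531 ± 82 in controls (log2 change -0.82, limma adjusted p = 0.0312), a call lost in 8 of 17 alternatives, which include leaving out any mouse but control replicate 3 (adjusted p 0.0252 to 0.124). Gpd2, the mitochondrial partner of Gpd1, did not pass, at 2466 ± 591 in nulls and 1986 ± 279 in controls, nor did the fat lipase Pnpla2, at 2155 ± 226 in nulls and 2251 ± 159 in controls.

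Of 4 other hexose carriers, 0 fell and 0 rose by limma, and at an unadjusted p under 0.05 0 were lower and 1 higher. Slc50a1 averaged 601 in nulls and 512 in controls, and Slc2a8 329 in nulls and 323 in controls. Of 9 genes of the glycogen and pentose phosphate pathways, 0 passed in either direction, and at an unadjusted p under 0.05 0 were lower and 1 higher. Transketolase, Tkt, averaged 5604 in nulls and 5021 in controls, and transaldolase, Taldo1, 2367 in nulls and 2638 in controls. Lactase was the single gene tested for disaccharide digestion and did not pass (log2 change -3.12, SE 0.70, limma adjusted p = 0.0606). It was called without null replicate 2, in males only and with sex as a term, and null replicate 2 was the brightest null by far.

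Of 29 regulators of hexose genes, Ppara, the fatty acid-sensing nuclear receptor, fell and 0 rose. It gave 476.1, 505.9 and 621.7 in null mice, against 1144.0, 1686.1 and 1133.8 in control mice (log2 change -1.27, SE 0.19, limma adjusted p = 0.0151). The call was lost without null replicate 1 and in males only (adjusted p 0.01 to 0.076 over 17 alternatives). The list's median was -0.02. The brightest did not pass: Klf4 averaged 3696 in nulls and 3234 in controls, and Esrra 2901 in nulls and 2907 in controls. Neither did Hnf4a, at 1148 ± 643 in nulls and 880 ± 522 in controls, a wide spread in either group.

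**Figure D4:**
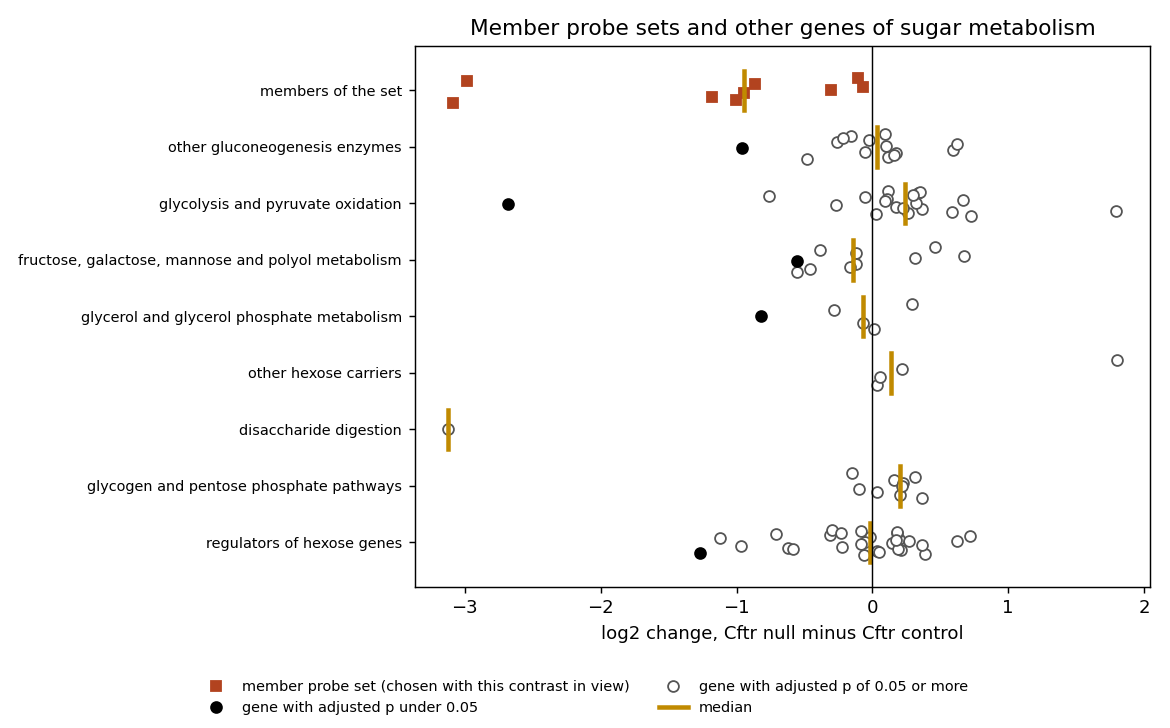
Log2 change, Cftr null minus Cftr control, of the 9 tested member probe sets (squares, chosen with this contrast in view) and of each gene of 8 other lists (circles, filled where the limma adjusted p was under 0.05). Yellow bars are medians. The member median of -0.94 lies left of the medians of the lists with more than 1 gene, which run from -0.14 to 0.24.

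The genes most like each member were taken as those whose log2 values, centred on their mean over the 6 mice, had the smallest root mean square difference from it, among 5709 other genes. Both groups enter this measure, so it partly restates the difference between genotypes. Nearest to Slc2a2 was Slc37a4, at 0.09 log2 units, followed by Ell2 and 0610005C13Rik, both at 0.15. The median probe set lay at 0.55, and a probe set that did not vary over the mice would lie at 0.50. Nearest to Fbp1 were Rdh7 (0.28), Cyp3a25 (0.39) and Aldh1a1 (0.49), where the median probe set lay at 1.66. Nearest to Pck1 were Ugt2b5 (0.33), Aldh1a1 (0.39) and the brush border peptidase Mme (0.40), where the median probe set lay at 1.63. Rdh7, nearest to Fbp1, gave 225.2, 427.8 and 150.1 in null mice, against 2110.9, 2382.3 and 1598.0 in control mice, with null replicate 3 lowest and null replicate 2 highest of the nulls, as in Fbp1.

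Fbp2 lay nearest to Pepd (0.10), Acaa1a (0.11) and Ace (0.14), with the median probe set at 0.68. G6pc lay nearest to Gstm3 (0.25), Cbr1 (0.27) and Gab1 (0.27), with the median probe set at 0.80. Gstm3 gave 4685.0, 1965.3 and 1931.1 in null mice, against 5955.2, 11305.6 and 3677.5 in control mice, so that null replicate 1 exceeded control replicate 3 in it as well. The brighter Gpd1 probe set lay nearest to Tspan5 (0.11), Nr1i3 (0.13) and Bmp1 (0.14), with the median probe set at 0.57. Slc5a1 lay nearest to Cfdp1, Slc38a10 and Ppl (each 0.07, median probe set 0.32), and Slc2a5 to Lcat, Hmces and Slc12a4 (0.32 to 0.36, median probe set 0.75). The 3 genes nearest to a member were therefore different for every member except Pck1 and Fbp1, which shared Aldh1a1.

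**Figure D5:**
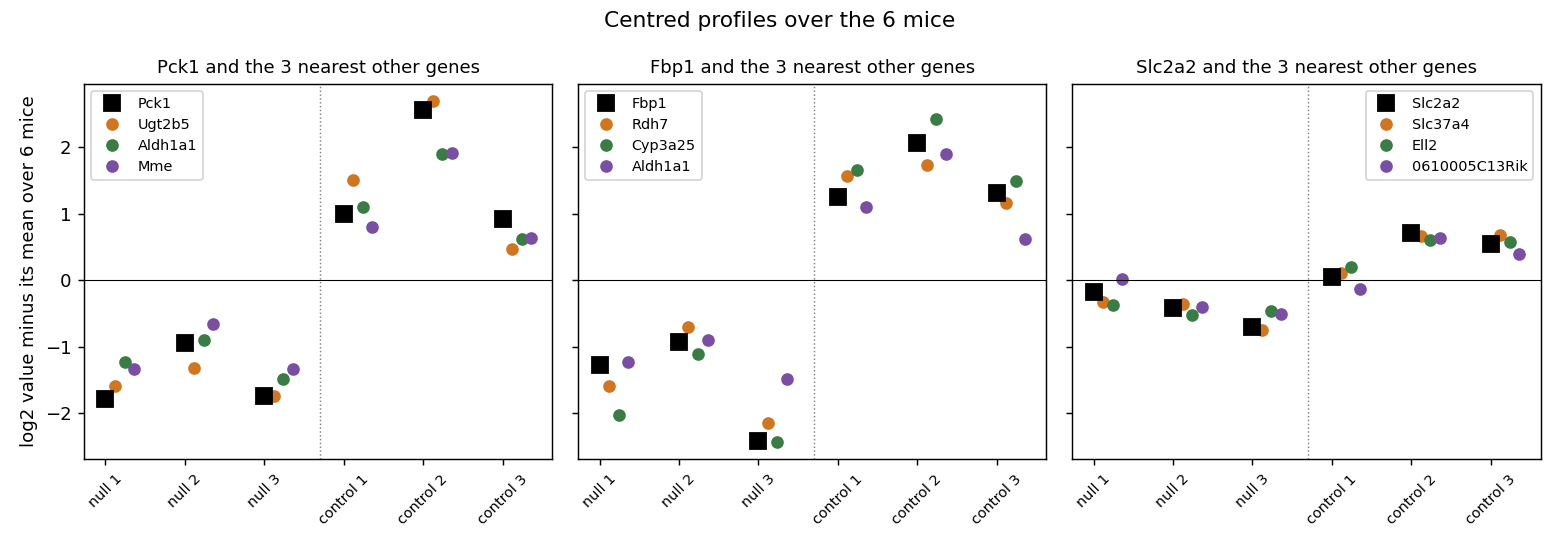
Log2 values of Pck1, Fbp1 and Slc2a2 (squares) and of the 3 genes nearest to each (circles), centred on the mean of each gene over the 6 mice, with the 3 Cftr null mice on the left of each panel and the 3 Cftr control mice on the right. Slc37a4 lies within 0.09 log2 units of Slc2a2 by root mean square difference.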

How the data were processed

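Values are intensity values of 12488 probe sets on 1-colour Affymetrix mouse arrays, as the authors deposited them, 1 array per mouse. They are linear and had been scaled before deposit (equal trimmed means). The software and its background step are not given in the sources used here. No detection calls were used, so the precision of a dim probe set is unknown. From them log2(intensity + 12) was computed, 12 being the 10th percentile of positive values. Control probe sets (66) were set aside. Probe sets above 109.7, the 40th percentile, in at least 3 of 6 arrays were tested (7601) with limma 3.58.1 in R 4.3.3 (lmFit, eBayes with trend), and two-sided p-values were adjusted by the Benjamini-Hochberg method across them. Genes were named from probe sets with 1 symbol (10833), of which 10817 had their Entrez identifier in the RefSeq table. A gene of a list is its brightest tested probe set. The SE of a member between genotypes comes from its SDs in the 2 groups, and every other SE from limma.

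Fold changes are on the log2(intensity + 12) scale, which understates changes of dim genes. Where the lower mean on that scale was at or below the filter level, the fold is a bound against that level. The members and lists were chosen with earlier results of these data known. Named were all members, the called genes of each list (at most 4, by size of change), the 2 brightest tested where fewer than 2 were called, and the 3 genes nearest to each member. Pck2, Pcx, Hnf4a, the single marker genes, Hk1, Hk2, Slc2a4, Slc2a1, Pgam1, Pgk1 and Pdk1 were named after their values were seen. The labels say that each array is a separate mouse but state no pairing or batch. Alternatives were quantile normalization, equal medians, pseudocounts of 3 and 48, no filter, a filter at 288.7 (60th percentile), eBayes without a trend or robust, sex as a term, males only, each mouse left out in turn, and for listed genes averaging their probe sets (for the medians) or leaving out probe sets marked for cross-hybridization. The fits were tested on simulated data.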

Additional observations from a re-analysis of the deposited data

How the results depend on the processing

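The log2 changes of the 10 member probe sets were recomputed under 14 settings (13 beside the reported one). Under the planned ones each moved by less than the spread between replicates. With each mouse left out, Pck1 ran from -3.27 to -2.45, Fbp1 from -3.40 to -2.65, Fbp2 from -1.37 to -0.98, G6pc from -1.37 to -0.65, Slc2a2 from -1.06 to -0.73 and the brighter Gpd1 probe set from -1.09 to -0.81. Centring on enterocyte markers, added after the values were seen, adds 0.68 to every probe set alike. That shift was larger than the spread between replicates in 6 of the 10 member probe sets. Of all tested probe sets, 142 were lower and 86 higher in null mice. These counts were 92 and 49 without a variance trend, 85 and 50 in males only, and 35 to 117 and 17 to 68 with each mouse left out. The 5 listed genes that fell were 3 with no filter, 2 without a trend, 2 in males only and 0 to 3 with each mouse left out. They were 4 without probe sets marked for cross-hybridization. The count of listed genes that rose, 0, became 1 with quantile normalization, pseudocount 48, the stricter filter, robust variance (Pgam1 in each) or sex as a term (Pdk1), and 0 to 3 with each mouse left out. Over all probe sets, 2 differed by sex, against 1 with quantile normalization or no filter, 0 with pseudocount 48 or without a trend, and 0 to 1 with each mouse left out. The interaction gave 0 calls in every setting that could be fitted. It could not be fitted without either female. No paired analysis was possible because the labels give no replicate numbers, and those used here follow the order of the samples and only name mice. With sex as a term, 124 probe sets were lower and 80 higher. Signal over background limits Khk and the null values of Pck1, which lie near or below the filter level.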

Other observations

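A pair of genes of glucose uptake and phosphorylation, picked after their values were seen, were brighter in null than in control mice without passing the test. Hexokinase 2, Hk2, which traps glucose as glucose-6-phosphate, gave 890.7, 1830.1 and 2303.7 in null mice, against 466.2, 254.6 and 717.7 in control mice (log2 change 1.79, SE 0.43, limma adjusted p = 0.0771). The basal glucose carrier GLUT1, Slc2a1, gave 253.5, 232.8 and 431.4 in null mice, against 102.8, 31.0 and 126.0 in control mice, at least 2.52-fold higher (limma adjusted p = 0.0871). Neither gene overlapped between the groups, and in both null replicate 3 was the brightest mouse, the same mouse that was lowest in 7 of 9 member probe sets. Among other genes of these steps, the brightest hexokinase, Hk1, averaged 6091 in nulls and 5691 in controls with overlap (limma adjusted p = 0.846). The carriers Slc2a8 and Slc2a4 had log2 changes of 0.03 and 0.06. The carrier Slc50a1 was higher in nulls without overlap, by a smaller amount than Hk2 and Slc2a1 (log2 change 0.22, limma adjusted p = 0.458).

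Phosphoglycerate mutase, Pgam1, averaged 4228 ± 611 in nulls and 2718 ± 52 in controls (SD, n = 3 each), just above the threshold (log2 change 0.62, SE 0.13, limma adjusted p = 0.0504). Phosphoglycerate kinase, Pgk1, averaged 4514 ± 769 in nulls and 2960 ± 195 in controls (limma adjusted p = 0.0852). Both enzymes act in glycolysis and in gluconeogenesis, and their values ran opposite in direction to those of Pck1 and Fbp1. Both were also picked after their values were seen.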
